A study of Mus musculus with 6 samples.

Results

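The genes followed here were 10 immediate early genes outside the AP-1 and Egr families, namely Ier2, Ier3, Ier5, Dusp1, Zfp36, Btg2, Klf4, Klf6, Nr4a1 and Rhob. They were picked by name as feedback and early response genes, with earlier results of these data known. The shares over all genes given below therefore describe the members and do not test them. Each member was found once among the 49585 genes of the count table. Of these 10 genes, 8 had at least 10 counts in at least 3 libraries and were tested, as were 10891 genes in all. Ier3 and Nr4a1 fell below that minimum and were described by their counts alone.

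Transcripts were measured by RNA-seq in mesenchymal cells of the thoracic lateral plate mesoderm (LPMs) of C57BL/6 mouse embryos (C57BL/6NCrSlc in the study's methods) at E10.5. The comparison was between 3 libraries of Prx1-Cre Ebf3 flox/flox embryos, called KO, and 3 of Prx1-Cre Ebf3 flox/+ embryos, called heterozygous, and it asked which LPM transcripts depend on Ebf3, a transcription factor of the early B-cell factor family. Both genotypes carried Prx1-Cre and the R26RTdtomato reporter, so the sorted Tdtomato+ cells had met Cre in both, and the heterozygous cells were left with 1 intact copy of Ebf3 rather than the full pair. Prx1-Cre is active in limb and body wall mesenchyme, and sorting on its reporter takes cells by their Cre history. The labels do not say whether the 3 replicates of a genotype were separate embryos, litters or pools, so each p-value below measures only the spread between these libraries.

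Library totals ran from 2088091 to 3525565 counts, with KO replicate 3 the deepest and KO replicate 2 the shallowest. Ebf3 itself stood at 94.1, 98.1 and 105 CPM (counts scaled to library size with TMM factors) in the heterozygous libraries and at 73.6, 42.9 and 60.4 CPM in KO, which checks the labels although the counts cover the whole gene and not the floxed part alone. Of 10 thoracic mesenchyme markers, all 10 passed the count minimum, and Pdgfra, the PDGF receptor of mesenchyme, lay between 652 and 974 CPM.

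Immediate early genes are switched on within minutes of a growth factor, a mechanical stimulus or a stress, by transcription factors that are already present in the cell, such as Srf and Creb. Their transcripts are short-lived, and several of the proteins close the response again, by removing phosphate from MAP kinases or by clearing mRNAs. In embryonic mesenchyme FGF signals act through the ERK kinases upstream of many of these genes, and tissue dissociation and cell sorting are also known to induce them.

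Promoters from RefSeq on GRCm38.p6, from 250 bases before to 50 after a start site, were matched to 9 of the 10 genes, all but Ier2. The cAMP response element TGACGTCA, bound by Creb, occurred in 1.79% of all 32851 promoters of that length and in those of Btg2 and Dusp1. The CArG box, bound by Srf, occurred in 1.63% of all promoters and in that of Zfp36. A CCCNNGGG match, the form of site read by Ebf factors, occurred in 13.7% of all promoters and in those of Ier5, Nr4a1 and Rhob. These promoters are shown because Btg2, Zfp36 and Dusp1 had the 3 largest fold changes of the members, and Rhob is an example of a match to the Ebf form. They are written 5′ to 3′ on the strand of the gene, with the cAMP response element, the CArG box or the Ebf form in capitals:
Btg2, chr1:134079156-134079405, minus strand: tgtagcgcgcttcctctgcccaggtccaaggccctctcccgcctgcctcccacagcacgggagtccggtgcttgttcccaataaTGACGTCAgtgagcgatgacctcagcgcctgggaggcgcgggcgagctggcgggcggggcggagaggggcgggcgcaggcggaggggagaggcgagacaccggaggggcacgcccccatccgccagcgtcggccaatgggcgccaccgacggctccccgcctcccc
Dusp1, chr17:26508520-26508722, minus strand, cut where an annotated exon begins: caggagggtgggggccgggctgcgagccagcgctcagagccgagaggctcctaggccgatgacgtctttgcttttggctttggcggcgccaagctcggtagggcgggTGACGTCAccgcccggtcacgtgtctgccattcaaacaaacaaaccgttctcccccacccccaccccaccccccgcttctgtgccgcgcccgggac
Zfp36, chr7:28379267-28379296, minus strand, the 30 bases around the CArG box: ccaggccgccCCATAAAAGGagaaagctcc
Rhob, chr12:8500010-8500259, minus strand: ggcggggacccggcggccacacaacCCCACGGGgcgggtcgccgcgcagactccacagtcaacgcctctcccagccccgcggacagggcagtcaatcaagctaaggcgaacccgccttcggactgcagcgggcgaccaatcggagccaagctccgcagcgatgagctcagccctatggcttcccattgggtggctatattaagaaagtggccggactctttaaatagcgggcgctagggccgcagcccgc

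The element began 166 bases before the start of Btg2 and 143 before that of Dusp1, the CArG box 58 before that of Zfp36, and the Ebf form 225 before that of Rhob. The start of Zfp36 in RefSeq lies inside a longer annotated first exon, and for that reason no more of it is printed. The short form TGACG, which the full element contains, was found in 20.8% of all promoters and in those of Dusp1, Btg2, Klf4 and Nr4a1. No member held the AP-1 site TGANTCA (7.81% of all promoters), the Egr site GCGTGGGCG (0.612%) or the TATAAA box (13.6%). Both strands were searched, and a match describes the letters of a window, not a bound site. The windows of the members held from 54.0% (Ier3) to 74.3% (Klf4) G and C, beside a median of 52.7% over all promoters. The shares over all promoters are not matched for this.

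All 8 tested genes had a higher mean in KO than in heterozygous LPMs, beside 50.2% of all genes tested, and their median log2 fold change was 0.53 beside 0.00 over all genes. The 4 largest changes belonged to Btg2, Zfp36, Dusp1 and Ier2. No member passed an adjusted p of 0.05 in edgeR's quasi-likelihood test, where the background was 0% of all genes, and DESeq2 and limma-voom also gave 0. At an unadjusted p up to 0.05 in edgeR, 2 members, Zfp36 and Btg2, were higher, beside 1.38% of all genes in that direction and 2.15% in either. None was lower, beside 0.771%. No member had all 3 KO libraries above all 3 heterozygous ones, which held for 3.95% of all genes, or all 3 below them, which held for 3.51%. An exact permutation test of 3 libraries against 3 cannot give a two-sided p below 0.1.

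Most of the difference lay in 1 library. KO replicate 3 was the highest of the 6 libraries for all 8 tested members, beside 16.8% of all genes, and it stood at least 2-fold above the mean of the other 5 libraries for Dusp1, Zfp36, Btg2 and Klf4, beside 1.18% of all genes. Without it, 5 of 8 members had a higher mean in KO (50.1% of all genes), the median fell to 0.14, and no member was higher at an unadjusted p up to 0.05 in edgeR (0.756% of all genes). Leaving out other libraries moved both the members and the background at that p. It gave 4 members beside 7.02% of all genes (KO replicate 1 left out), 5 beside 3.39% (KO replicate 2 left out) or 1 beside 2.24% (heterozygous replicate 3 left out). With an equal-variance test on log2 CPM the count was 0, beside 3.72% of all genes, and with no count filter it was 4, beside 3.15%.

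**Figure D1:**
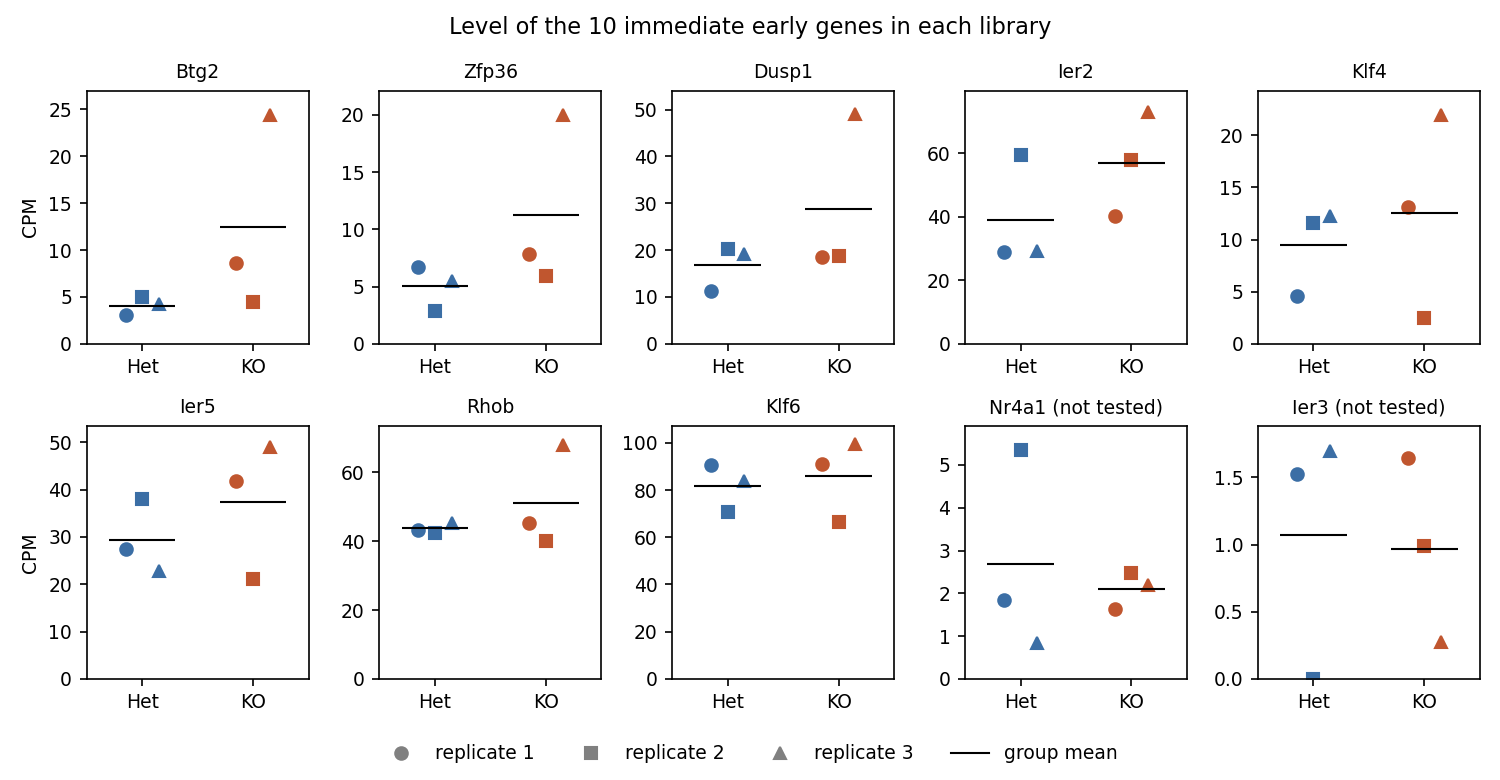
Level of each gene in CPM (y axis, from 0) in the 3 heterozygous (blue) and 3 KO (orange) libraries, with the replicate number as the symbol and the group mean as a line. KO replicate 3 is the highest point in all 8 tested genes, at 24.4 CPM for Btg2, 20.0 for Zfp36 and 49.1 for Dusp1. Most points of the other KO libraries lie among or near the heterozygous ones. Btg2 in KO replicate 1 lies above them (8.63 against at most 4.95 CPM), and Klf4 in KO replicate 2 below them (2.47 against at least 4.58 CPM).

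Among the genes that dampen the response, those for mRNA decay were furthest apart. Btg2 encodes an antiproliferative protein that recruits the CCR4-NOT deadenylase to mRNAs, and lies on chromosome 1 from 134075170 to 134079120 (GRCm38, minus strand, 2 exons). It stood at 3.06, 4.95 and 4.24 CPM in the heterozygous libraries and at 8.63, 4.44 and 24.4 CPM in KO, from 9 to 89 counts. KO replicates 1 and 3 were above every heterozygous library, and KO replicate 2 lay within their range. The heterozygous mean was 4.08 ± 0.955 CPM (SD, n = 3), and the KO mean of 12.5 CPM was 3.06 times as high. On the log2 scale this came to 1.69 (SE 0.56), for which edgeR gave an unadjusted p of 0.0119 and, over all genes, an adjusted p of 1.00. Without KO replicate 3 it was 0.72 (SE 0.48, unadjusted p = 0.169 from edgeR). With no count filter Btg2 was the 1 member past the adjusted threshold (adjusted p = 0.0151 from edgeR), as were 0.166% of the 18119 genes then tested in that direction. That fit took the spread from all genes pooled, not from Btg2 itself, and its SE for Btg2 was 0.40 in place of 0.56. This adjusted p therefore does not reflect how far the KO libraries of Btg2 lay apart.

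Zfp36 encodes tristetraprolin, which binds AU-rich elements and speeds the decay of early response and cytokine mRNAs, and lies on chromosome 7 from 28376784 to 28380253 (minus strand, 2 exons). Its levels were 6.72, 2.89 and 5.51 CPM in heterozygous and 7.81, 5.92 and 20.0 CPM in KO LPMs. KO replicates 1 and 3 exceeded every heterozygous library, the first of them by little, and KO replicate 2 lay between heterozygous replicates 1 and 3. In edgeR the fold change, as log2, was 1.19 (SE 0.50, unadjusted p = 0.0355, adjusted p = 1.00) and 0.43 (SE 0.47, unadjusted p = 0.381) without KO replicate 3. The antisense gene Gm44710 overlaps Zfp36 and had 0 counts in all 6 libraries.

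Dusp1 encodes a nuclear phosphatase that inactivates p38, JNK and ERK, and lies on chromosome 17 from 26505590 to 26508519 (minus strand, 4 exons). In heterozygous LPMs it was found at 11.3, 20.2 and 19.1 CPM and in KO LPMs at 18.5, 18.7 and 49.1 CPM. KO replicates 1 and 2 lay inside the heterozygous range, and KO replicate 3 was 2.43 times the highest other library. For Dusp1 edgeR gave a log2 difference of 0.83 (SE 0.39, unadjusted p = 0.0542, adjusted p = 1.00), and of 0.16 (SE 0.31, unadjusted p = 0.613) without KO replicate 3.

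The 3 Ier genes, which bear the name immediate early response, differed in level and behaviour. Ier2 encodes a small nuclear protein and lies in a single exon on chromosome 8 from 84661331 to 84662852 (minus strand). Its levels were 28.7, 59.4 and 29.2 CPM in heterozygous and 40.3, 57.7 and 73.0 CPM in KO LPMs. Heterozygous replicate 2 was above KO replicates 1 and 2, so the groups overlapped, and the other heterozygous libraries lay below all KO libraries. KO exceeded heterozygous LPMs by 0.56 on the log2 scale in edgeR (SE 0.29, unadjusted p = 0.0810). Leaving out heterozygous replicate 2 raised this to 0.98 (unadjusted p = 0.00289), and leaving out KO replicate 3 lowered it to 0.33.

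Ier5, also of 1 exon, lies on chromosome 1 from 155096361 to 155099636 (minus strand) and encodes a nuclear protein that acts on heat shock factor in human cells. It stood at 27.5, 37.9 and 22.9 CPM in heterozygous and at 41.9, 21.2 and 49.1 CPM in KO LPMs. The KO libraries held both the highest and the lowest of the 6 levels. The difference from edgeR, 0.37 in log2 units with an SE of 0.29, had an unadjusted p of 0.227. Ier3, whose product modulates cell survival, lies on chromosome 17 from 35821684 to 35822923 (plus strand, 2 exons) and had 5, 0 and 4 counts in heterozygous and 4, 2 and 1 in KO libraries. The ratio of its summed counts, KO over heterozygous and scaled to library size, was 0.773, with an exact 95% interval from 0.245 to 2.33 that covers counting error only. At this depth no difference in Ier3 was detectable, and it was the 1 member whose level in KO replicate 3, at 0.274 CPM, was lower than in every other library with a count.

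The Klf genes encode zinc-finger transcription factors that bind GC-rich and CACCC sites. Klf4, known for its part in reprogramming to pluripotency, lies on chromosome 4 from 55527143 to 55532466 (minus strand, 5 exons), and was measured at 4.58, 11.5 and 12.3 CPM in heterozygous and at 13.2, 2.47 and 21.9 CPM in KO LPMs. KO replicate 2, with 5 counts, was the lowest library and KO replicate 3 the highest, so the KO levels of Klf4 enclosed the heterozygous ones. With an SE of 0.57, its log2 fold change of 0.50 was smaller than its error (unadjusted p = 0.398 from edgeR), and it turned to -0.21 without KO replicate 3.

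Klf6, a growth-restraining member of the family, lies on chromosome 13 from 5861489 to 5870393 (plus strand, 4 exons) and was measured at 90.8, 70.9 and 83.9 in heterozygous and 91.2, 66.6 and 99.6 CPM in KO LPMs. The range of KO enclosed that of the heterozygous libraries. Klf6 differed by 0.07 on the log2 scale (SE 0.17, unadjusted p = 0.670 from edgeR), a value that changed sign, to -0.05 and -0.02, when KO replicate 3 or heterozygous replicate 2 was left out.

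Nr4a1 encodes the orphan nuclear receptor Nur77 and lies on chromosome 15 from 101266846 to 101274792 (plus strand, 7 to 8 exons). It had 6, 13 and 2 counts in heterozygous and 4, 5 and 8 in KO libraries, which are 1.83, 5.36 and 0.847 CPM against 1.64, 2.47 and 2.19 CPM. The heterozygous libraries held both the highest and the lowest level, and KO replicate 3 did not stand apart. The ratio of summed counts was 0.805 (exact 95% interval 0.399 to 1.60), so a difference was not detectable at this depth.

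Rhob encodes a small GTPase of endosomes and actin that, unlike the related Rhoa and Rhoc, is induced early after growth factors and genotoxic stress, and lies in 1 exon on chromosome 12 from 8497763 to 8499985 (minus strand). It was the steadiest member among heterozygous libraries, at 43.4, 42.5 and 45.3 CPM, and stood at 45.2, 40.0 and 68.0 CPM in KO LPMs. KO replicate 1 lay within the heterozygous range, KO replicate 2 just under it and KO replicate 3 well above it. The genotypes differed by 0.24 on the log2 scale in edgeR (SE 0.20, unadjusted p = 0.255), and by -0.03 (SE 0.18) with KO replicate 3 left out. In sorted bulk LPMs, a larger share of cells with these transcripts and more transcripts per cell cannot be told apart.

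**Figure D2:**
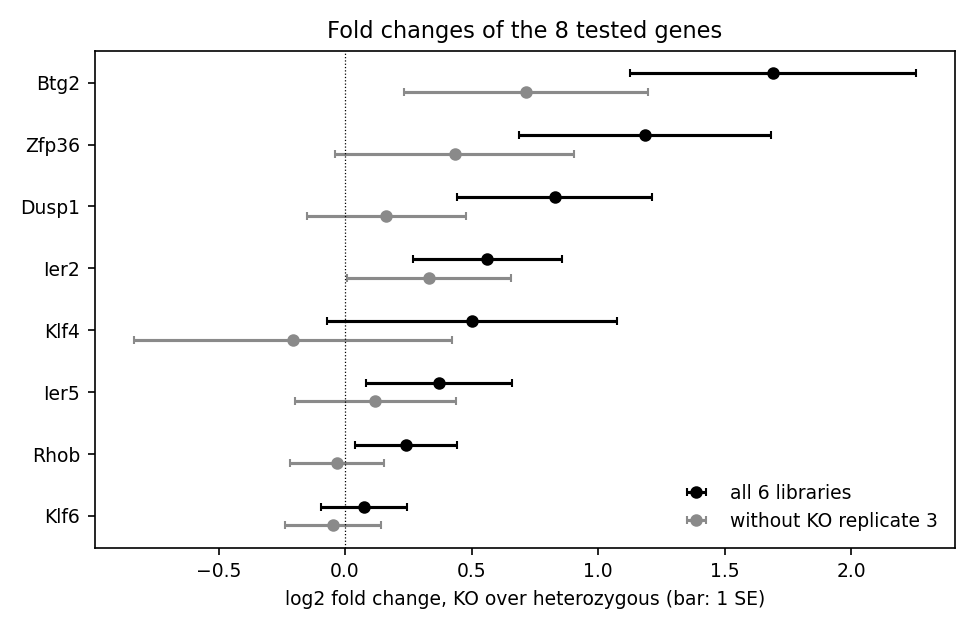
Log2 fold change of KO over heterozygous LPMs from edgeR for the 8 tested genes (x axis, bars are 1 SE), with all 6 libraries in black and without KO replicate 3 in grey. With all libraries the values run from 0.07 for Klf6 to 1.69 for Btg2, and without KO replicate 3 from -0.21 for Klf4 to 0.72 for Btg2.

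The libraries were then compared one by one, with each gene set to its own heterozygous mean in log2 CPM. The median over the 8 tested members was -0.19, 0.28 and 0.06 in the heterozygous libraries. In KO it was 0.35 in replicate 1, 0.00 in replicate 2 and 1.12 in replicate 3. All 8 members were above the heterozygous mean in KO replicates 1 and 3 and 4 of 8 in KO replicate 2, and the single values in KO replicate 3 ran from 0.29 for Klf6 to 2.40 for Btg2. KO replicate 1 was thus also on the high side, at a median smaller than that of KO replicate 3 and close to that of heterozygous replicate 2.

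The AP-1 genes, which encode the Fos, Jun and Atf partners of the same response, had a similar order of libraries. Of 8 such genes 6 were tested, all 6 had a higher mean in KO (50.2% of all genes), and their median log2 fold change was 0.80. At an unadjusted p up to 0.05 in edgeR 2 were higher, beside 1.38% of all genes. Junb fell below the count minimum, at 2.14, 3.30 and 2.97 CPM in heterozygous and 8.22, 3.45 and 14.0 CPM in KO LPMs. Fos, the classic immediate early transcription factor, was found at 10.4, 23.1 and 15.3 CPM in heterozygous and at 42.7, 9.86 and 115 CPM in KO LPMs. For Atf3, a stress-induced repressor, edgeR gave 1.90 on the log2 scale (SE 0.57, unadjusted p = 0.00662), and 1.09 (unadjusted p = 0.0731) without KO replicate 3. Like Ier5, Klf4, Klf6 and Rhob, Fos had its lowest level in KO replicate 2 and its highest in KO replicate 3. Of 4 Egr genes, only Egr1 passed the count minimum, at 11.6, 23.1 and 20.3 CPM in heterozygous and 47.7, 24.2 and 117 CPM in KO LPMs. Its 3 KO libraries were all above the heterozygous ones, which held for 3.95% of all genes, though KO replicate 2 was so by little. For Egr1 edgeR gave 1.83 on the log2 scale (SE 0.48, unadjusted p = 0.00258), and 1.00 (unadjusted p = 0.0173) without KO replicate 3. The median of the AP-1 genes over their heterozygous mean was 0.86, -0.52 and 1.44 in KO replicates 1, 2 and 3. Without KO replicate 3, 4 of the 6 AP-1 genes had a higher mean in KO, their median fell to 0.25, and none was at an unadjusted p up to 0.05.

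A wider list of 34 other early response genes behaved less uniformly. Of 29 tested, 23 had a higher mean in KO (50.2% of all genes) and 6 a lower one. Their median was 0.22, and 0.03 without KO replicate 3. In this list 5 genes were higher at an unadjusted p up to 0.05 in edgeR (1.38% of all genes) and none lower (0.771%). Without KO replicate 3, 3 genes were at that p, beside 127 of all 10581 genes then tested. Cyr61, a matricellular target of Srf and Yap, stood at 59.3, 78.3 and 60.2 CPM in heterozygous and 113, 74.0 and 265 CPM in KO LPMs. Its log2 fold change was 1.22, and 0.52 without KO replicate 3 (unadjusted p = 0.0359 from edgeR). Sgk1, a serum- and glucocorticoid-induced kinase, differed by 0.98 on the log2 scale (SE 0.33, unadjusted p = 0.0127 from edgeR), and was as high in KO replicate 1 as in KO replicate 3, at 23.0 CPM in each. Maff, a small Maf factor, was also alike in these libraries, at 8.22 and 7.96 CPM, and at 6.41 CPM in KO replicate 2 against 2.54 to 4.95 CPM in heterozygous LPMs.

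**Figure D3:**
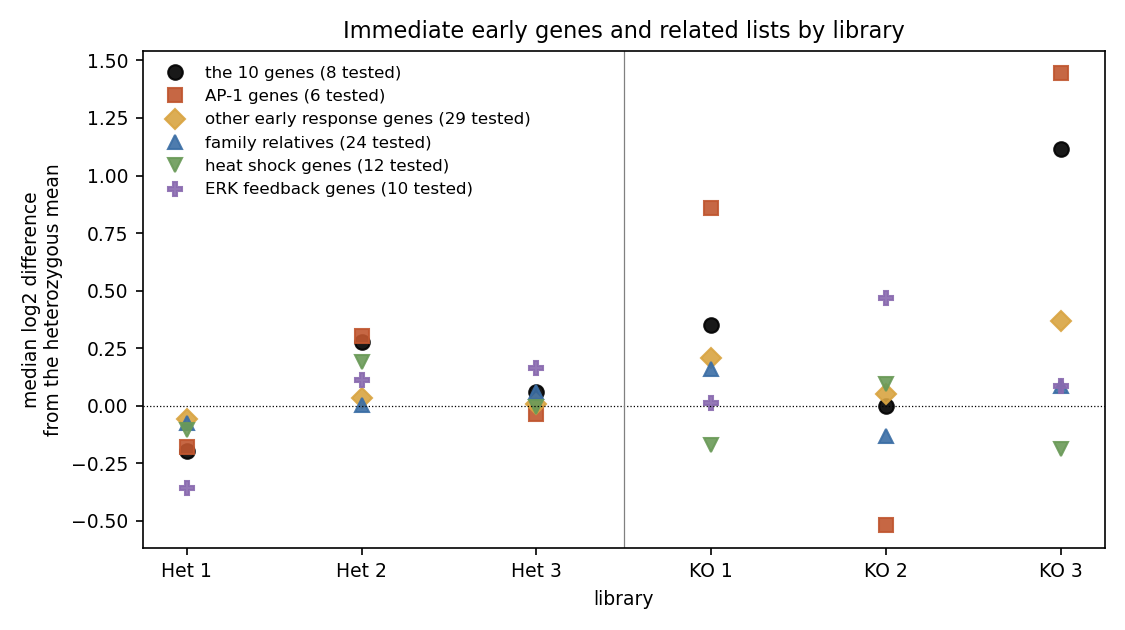
Median log2 difference from the heterozygous mean (y axis) in each of the 6 libraries (x axis) for the tested members of 6 gene lists. The median of the 8 tested immediate early genes is 1.12 and that of the AP-1 genes 1.44 in KO replicate 3, where the median of the heat shock genes is -0.19.

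Relatives of the members in the same protein families were compared next, since most of them are not early response genes. Of 31 relatives 24 were tested, and 16 had a higher mean in KO (50.2% of all genes) and 8 a lower one. Their median log2 fold change was 0.10, which was 0.06 without KO replicate 3. The 1 relative at an unadjusted p up to 0.05 was Dusp5, a nuclear phosphatase of ERK that is itself induced by ERK, at 7.03, 11.5 and 14.8 CPM in heterozygous and 20.6, 12.8 and 33.7 CPM in KO LPMs (log2 fold change 1.07, SE 0.37, unadjusted p = 0.0152 from edgeR). Dusp5 was no longer at that p without KO replicate 3, where the value was 0.62 (unadjusted p = 0.136 from edgeR). Over all genes 1.38% were higher at that p with all libraries. Btg3, an antiproliferative relative of Btg2, was listed at 0, 1.65 and 5.51 CPM in heterozygous and 6.99, 8.38 and 5.49 CPM in KO LPMs, where KO replicate 3 was the lowest of the 3 (unadjusted p = 0.0569 from edgeR). The median of the relatives was 0.08 above the heterozygous mean in KO replicate 3 and 0.16 in KO replicate 1.

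Genes around the pathway had smaller median fold changes. Over all genes, 50.2% had a higher mean in KO, or 50.1% without KO replicate 3. Of 6 genes for Srf and its Ets and Mrtf cofactors 3 had a higher mean in KO, with a median of -0.01, and Srf itself stood at 24.8, 19.4 and 25.4 CPM in heterozygous and 29.2, 29.1 and 34.3 CPM in KO LPMs (log2 fold change 0.42, SE 0.20, unadjusted p = 0.0582 from edgeR). All 3 KO libraries of Srf were above the heterozygous ones, which held for 3.95% of all genes. Of 10 ERK feedback genes, the Spry, Spred and Etv genes among them, 7 had a higher mean in KO, with a median of 0.13 (10 of 10 and 0.17 without KO replicate 3), and their highest library was KO replicate 2 at a median of 0.47 above the heterozygous mean. Of 13 deadenylase genes, Pan2 and genes of the CCR4-NOT machinery among them, 6 had a higher mean in KO, with a median of -0.01 (9 and 0.04 without KO replicate 3). None of the genes in these 3 lists had an unadjusted p up to 0.05 in edgeR, beside 2.15% of all genes. At that share, lists this short would hold few such genes or none. Among 12 tested heat shock genes 5 had a higher mean in KO, or 7 without KO replicate 3, none was at that p, and the median was -0.17 in KO replicate 1 and -0.19 in KO replicate 3.

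For 5 of 6 other cell types the summed markers were also highest in KO replicate 3, though single markers did not all follow. Of the tested markers, KO replicate 3 was the highest library for 3 of 5 endothelial, 3 of 7 epithelial and hepatic and 2 of 2 neural ones. The same held for 1 of 4 mesothelial and 0 of 1 myogenic markers, beside 16.8% of all genes. Summed over 8 epithelial and hepatic markers, of which 7 were tested, the level was 277 to 409 CPM in heterozygous LPMs and 327, 241 and 517 CPM in KO replicates 1, 2 and 3. Afp, made by fetal liver and yolk sac, accounted for much of this, at 26.0, 19.4 and 52.1 CPM in heterozygous and 71.1, 6.91 and 194 CPM in KO LPMs. Krt8, Krt18, Cdh1 and Epcam were highest in heterozygous replicate 1, Krt8 at 213 CPM against 135 CPM in KO replicate 3. Summed over 10 blood cell markers, none of them past the count minimum, the level was 1.83 to 4.95 CPM in heterozygous and 4.11, 0 and 24.7 CPM in KO LPMs. In KO replicate 3 the embryonic globins Hbb-y and Hba-x made up 8.78 and 7.41 CPM of that sum. The 7 endothelial markers, 5 of them tested, summed to 65.1 to 187 CPM in heterozygous and 130, 76.9 and 228 CPM in KO LPMs. The 8 neural and neural crest markers, 2 of them tested, came to 4.95 to 21.7 CPM against 23.0, 18.2 and 50.8 CPM. Sums over 6 myogenic markers were 10.3 to 17.1 CPM against 23.8, 10.9 and 22.5 CPM, and over 5 mesothelial markers 156 to 222 CPM against 222, 190 and 227 CPM, with Msln at 0 in every library. The thoracic mesenchyme markers summed to 3505 to 4471 CPM in heterozygous and 4465, 2935 and 3205 CPM in KO LPMs. Ier5, Klf4 and Klf6, like Afp, were highest in KO replicate 3, next in KO replicate 1 and lowest in KO replicate 2. The part of other cell types in the levels of the immediate early genes was not tested.

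Levels of different genes were compared per length with the deposited RPKM, within each library, after dividing by the library's own ratio of RPKM to CPM so that all 6 were on the scale of heterozygous replicate 1. In the order of the medians over 6 libraries, Ier2 came first at 9.11 RPKM on that scale, then Klf6 (5.86), Rhob (5.64), Ier5 (2.83), Dusp1 (1.98), Klf4 (1.11), Zfp36 (0.560), Btg2 (0.484), Ier3 (0.314) and Nr4a1 (0.230). Only the steps from Rhob to Ier5 and from Dusp1 to Klf4 held in all 6 libraries. Btg2 was above Ier3 in 5 libraries, and Ier2 above Klf6 in 4. Klf6 was above Rhob in 2 of 6, and the other steps held in 3 or 4 libraries, so these neighbours did not differ beyond their spread. The members with the largest fold changes, Btg2 and Zfp36, were thus among those with the least transcript per length.

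**Figure D4:**
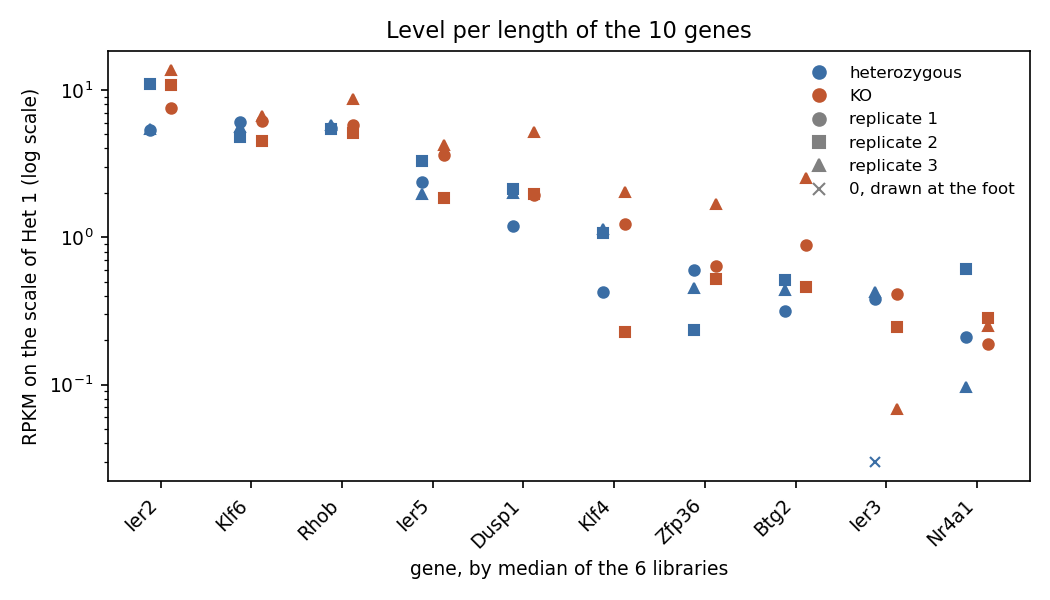
Level per length (y axis, log scale, RPKM divided by each library's RPKM to CPM factor so that heterozygous replicate 1 is unchanged) of the 10 genes in order of their median, with genotype as colour and replicate as symbol. The medians fall from 9.11 for Ier2 to 0.230 for Nr4a1, and the level of 0 of Ier3 in heterozygous replicate 2 is drawn as a cross at the foot.

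Over the 6 libraries, the genes whose profile lay closest to the median profile of the tested members were Tcf21, Gpx8, Stom, Zfp637, Usmg5, Tob1, Ubald1 and Fblim1, out of 8954 genes with a mean of at least 10 CPM. Their root mean square difference from that profile was 0.181 to 0.235 in log2 units. Tcf21, a basic helix-loop-helix factor of mesodermal progenitors, was the nearest, at 8.86, 16.1 and 12.7 CPM in heterozygous and 18.9, 10.9 and 23.6 CPM in KO LPMs. Tob1 is a relative of Btg2 in the Btg/Tob family. Such likeness over 6 libraries, which differ in depth, is a description of these libraries alone.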

How the data were processed

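RNA from FACS-sorted thoracic LPMs of 3 KO and 3 heterozygous samples was made into SMARTer libraries and sequenced on the Illumina NextSeq platform. The authors mapped reads and counted them per gene in CLC with its Ensembl annotation. The submitters' processing notes name mm9, the methods name a later mouse build, and gene positions in the deposited table follow GRCm38, the build used here. Aligner settings and strand are not given in the sources used here.

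The deposited counts are whole numbers per gene and served every test. The authors' RPKM, which scale reads to gene length and depth, were used for levels per length and as an alternative, on log2 scale with pseudocounts of 1 and 0.1. The authors' quantile-normalized and log2 values, read summary, gene list and own p-values and fold changes were not used.

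Genes with at least 10 counts in 3 libraries entered edgeR 4.0.16 (R 4.3.3) with TMM factors of 0.971 to 1.034 and its quasi-likelihood test on genotype alone, at a biological coefficient of variation of 0.173. P-values were adjusted by Benjamini-Hochberg over 10891 genes. The adjusted and unadjusted p thresholds were 0.05. The SE is the log2 fold change divided by the square root of F. CPM are TMM-scaled. Exon numbers and overlaps are from GENCODE M21. The pipeline was tested on simulated data.

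As alternatives, the test was run with DESeq2 1.42.0, limma-voom (limma 3.58.1) or an equal-variance test on log2 CPM, with upper quartile factors or none, with no count filter or 10 counts in every library, on RPKM, with a replicate block, and without each library. The 10 genes, the lists and the tests were chosen with earlier results of these data known. All 10 genes are named, with up to 4 tested genes of smallest p per other list, Fos, Junb and Egr1, and the 8 genes with a mean of at least 10 CPM closest to the members' median profile. Single markers and Afp were also named for their level in KO replicate 3 or heterozygous replicate 1, after their values were seen. Exact (Clopper-Pearson) intervals cover counting error only.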

Additional observations from a re-analysis of the deposited data

How the results depend on the processing

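The members' log2 fold changes kept their sign in 121 of 125 values under 16 alternatives, and 4 were opposite: Klf6 without heterozygous replicate 2 (-0.02), and Klf4 (-0.21), Klf6 (-0.0466) and Rhob (-0.0313) without KO replicate 3. Leaving out 1 library at a time gave 0 to 5 members at an unadjusted p up to 0.05, 5 to 8 with a higher mean in KO and a median log2 fold change of 0.14 to 0.80 (Klf4 -0.21 to 0.94, Klf6 -0.0466 to 0.22, Rhob -0.0313 to 0.38), and over all genes 127 to 749 at that p and 0 to 1 past the adjusted threshold. Of the members, 2 were at an unadjusted p up to 0.05 with all libraries in edgeR. With DESeq2 there were 3, Dusp1 (unadjusted p = 0.0369 from DESeq2), Zfp36 and Btg2. The count was 1 with limma-voom, 0 with the equal-variance test, 4 with no count filter and 1 with RPKM at a pseudocount of 0.1. With 10 counts in every library it was 1 of 5. There all 5 were higher in KO, and Btg2, Zfp36 and Klf4 were no longer tested. Btg2 alone passed an adjusted p of 0.05, with no filter, where the spread was pooled over genes. Over all genes the number at an unadjusted p up to 0.05 was 234, and 125 with DESeq2, 405 with the equal-variance test, 571 with no filter, and 71 and 61 with RPKM at pseudocounts of 1 and 0.1, with 38, 1 and 5 past the adjusted threshold for the last 3. The replicate block gave 4 members and 493 genes at that p and 2 genes past the adjusted threshold. Deviations of same-numbered libraries correlated at 0.43, 0.19 and 0.01, and those of the other pairs at -0.34 to 0.13. KO replicates 1 and 2 matched the heterozygous library of their own number best. KO replicate 3 matched heterozygous replicate 2 best, at 0.09. The match by number was thus partial, and the numbers were not taken to pair the samples. The cause of these shifts was not tested. Depth limited Ier3 and Nr4a1, with 0 to 13 counts per library.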
